A study of Mus musculus with 12 samples.

Results

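The genes described here are 36 ribosome biogenesis and nucleolar factors of the mouse, chosen by name as a module and found by gene symbol among the 28977 gene IDs of the expression table. All 36 were found, and all 36 were among the 12026 genes kept for testing, which had at least 1 FPKM in at least 3 of the 12 libraries. FPKM is the number of fragments of a gene scaled by the length of its exons and by the depth of the library. That length is summed over all annotated exons and can exceed that of the transcript expressed. Levels of different genes therefore compare only roughly.

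Messenger RNA was sequenced from J774A.1, a mouse macrophage-like line. Cells received cell media or hypochlorous acid (HOCl, the oxidant that myeloperoxidase makes) at 0, 20 or 100 µM in HBSS, a balanced salt solution, for 1 h, and were collected after a further 24 h in full medium. HBSS at 0 µM was the vehicle control, since medium can react with HOCl, and cell media was an untreated control that had no HBSS step. Each of the 4 groups had 3 libraries, no genetic change and the same line, and nothing says whether the 3 came from separate cultures, so p-values measure the spread between these libraries only.

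Ribosomes are assembled in the nucleolus. RNA polymerase I transcribes a long ribosomal RNA precursor, and small nucleolar RNPs (snoRNPs) modify its nucleotides and guide some of its cleavages. Separate sets of assembly factors build the small and the large subunit before both leave the nucleus. The mRNAs of these factors are known as targets of MYC, which binds the E-box CACGTG, and dividing cells are known to express them in quantity. In bulk RNA a change in level within cells and a change in the mix of cell states cannot be told apart.

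Promoter windows from 250 bases before to 50 bases after the annotated start were present for 30 of the 36 members, as 34 windows (RefSeq, mouse build GRCm38.p6). The letters CACGTG, which read the same on both strands, stood in 5 of 34 member windows (14.7%), in 18 of 102 windows of other genes of the pathway (17.6%) and in 7.15% of all 32851 windows. The 5 member sites are printed because the E-box is the element by which MYC is known to bind such genes. They are given on the strand of the gene, with CACGTG in capitals.
Nop2, an rRNA methyltransferase, chr6:125131811-125131840, plus strand, motif starting 60 bases before the start: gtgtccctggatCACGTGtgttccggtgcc
Pes1, of the large subunit complex with Bop1 and Wdr12, chr11:3963965-3963994, plus strand, motif 2 bases after the start: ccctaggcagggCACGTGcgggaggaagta
Wdr43, a small subunit factor, chr17:71616220-71616249, plus strand, motif 17 bases after the start: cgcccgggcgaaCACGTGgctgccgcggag
Utp20, a small subunit factor, chr10:88826765-88826789, minus strand, motif 37 bases after the start: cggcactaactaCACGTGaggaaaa
Mybbp1a, a regulator of RNA polymerase I, chr11:72441355-72441376, plus strand, motif 40 bases after the start: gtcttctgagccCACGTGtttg

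A second motif, GCGC followed by any base and then TGCGC, searched on both strands and close to the known site of the factor NRF1, was also in 5 of 34 member windows, against 4.60% of all windows and 12.7% of those of other pathway genes. Nop2, Mybbp1a and Wdr43 held both motifs without overlap. Wdr12 held the second one 131 bases before its start, in the stretch chr1:60098229-60098292. The gene is on the minus strand, and the motif reads on the strand opposite to it. The stretch is printed on the strand of the gene, so its capitals are the reverse complement of the motif. It is shown because Wdr12 had one of the largest differences between 100 µM HOCl and HBSS.
Wdr12: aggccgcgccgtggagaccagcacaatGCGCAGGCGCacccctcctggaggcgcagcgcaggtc
These matches are letters in a window, and no binding was measured.

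The libraries rested on 17683937 to 21408518 fragments, as recovered from the steps of the low FPKM values. All 9 macrophage markers were present, with Lyz2 at 2020 to 2892 FPKM, Cd68 at 771 to 918 FPKM and Csf1r at 41.4 to 92.4 FPKM. Adgre1 and Mertk were low, at 3.71 to 9.14 FPKM and 2.40 to 7.44 FPKM. The 13 markers of T cells, B cells, fibroblasts, epithelial and endothelial cells that the table held summed to between 0.495 and 0.938 FPKM in each library, with no single value above 0.435. Cell media replicates 1 and 2 stood apart: on the log2 scale over kept genes their correlation was 0.988, against 0.946 to 0.971 with the remaining 10 libraries, and any 2 of the remaining 10 had at least 0.974. Each result is therefore given with all 12 libraries and, where it differs, with the 10 left without these 2.

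The factors were well expressed. In HBSS all 36 lay above the median kept gene, which was at 7.40 FPKM, and their own median was 31.5 FPKM. Together they made up 0.491 to 0.555% of all FPKM in the HBSS libraries, 0.513 to 0.548% at 20 µM and 0.524 to 0.558% at 100 µM HOCl, so these ranges overlapped. In cell media the share was 0.351, 0.422 and 0.461% in replicates 1 to 3, below every other library. The share depends on the FPKM total, which was 389124 and 387481 in cell media replicates 1 and 2 and 312055 in HBSS replicate 1. The summed FPKM of the members overlapped, at 1364 to 1637 in cell media and 1532 to 1732 in HBSS. Between 456 and 36528 fragments stood behind each member value in each library.

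Of the abundant nucleolar proteins, Npm1 (nucleophosmin, a histone and ribosomal protein chaperone) had the highest FPKM of all members, at 373 ± 19.7 in HBSS (SD, n = 3). Processed copies of Npm1 exist in the genome, so some of its reads may be shared with them. Ncl (nucleolin, which binds nascent ribosomal RNA) followed at 166 ± 19.1 FPKM, and Nolc1, a snoRNP chaperone, had 47.5 ± 8.57 FPKM. Next after Ncl in the order of levels came the H/ACA protein Nhp2 (107 ± 7.16 FPKM), the C/D protein Nop56 (80.4 ± 6.27 FPKM) and Mybbp1a (73.0 ± 5.70 FPKM). Nop56 and Mybbp1a differed by about the size of their SDs, while Npm1, Ncl and Nhp2 were separated by more than theirs.

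Members of 1 complex did not share 1 FPKM level, a measure that depends on the summed exon length of each gene. In the box C/D snoRNP, which methylates ribosomal RNA, the methyltransferase Fbl had 36.5 ± 3.17 FPKM in HBSS, under the 80.4 FPKM of its partner Nop56 and above the 24.4 ± 1.03 FPKM of Nop58. In the box H/ACA snoRNP, which makes pseudouridine, the enzyme Dkc1 had 54.6 ± 3.44 FPKM, close to the 53.3 ± 5.05 FPKM of Nop10, while Gar1 had 31.4 ± 1.75 FPKM. Among large subunit factors Pes1 and Bop1 were at 44.8 ± 2.27 and 44.9 ± 4.28 FPKM, and their complex partner Wdr12 at 8.25 ± 0.970 FPKM. Over the 12 libraries Wdr12 had 1009 to 2251 fragments on 11955 summed exon bases, and Pes1 1868 to 2823 on 3024. The gap in FPKM between them therefore depends on the lengths used. The 8 small subunit factors ran from 11.2 FPKM for Rrp9 to 38.1 FPKM for Wdr43. Polr1b, the second subunit of RNA polymerase I, was the lowest member at 7.42 ± 0.225 FPKM, and the largest subunit, Polr1a, had 22.7 ± 1.28 FPKM. The lowest 2, Polr1b and Wdr12, were within 1 SD of Wdr12 of each other.

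**Figure D1:**
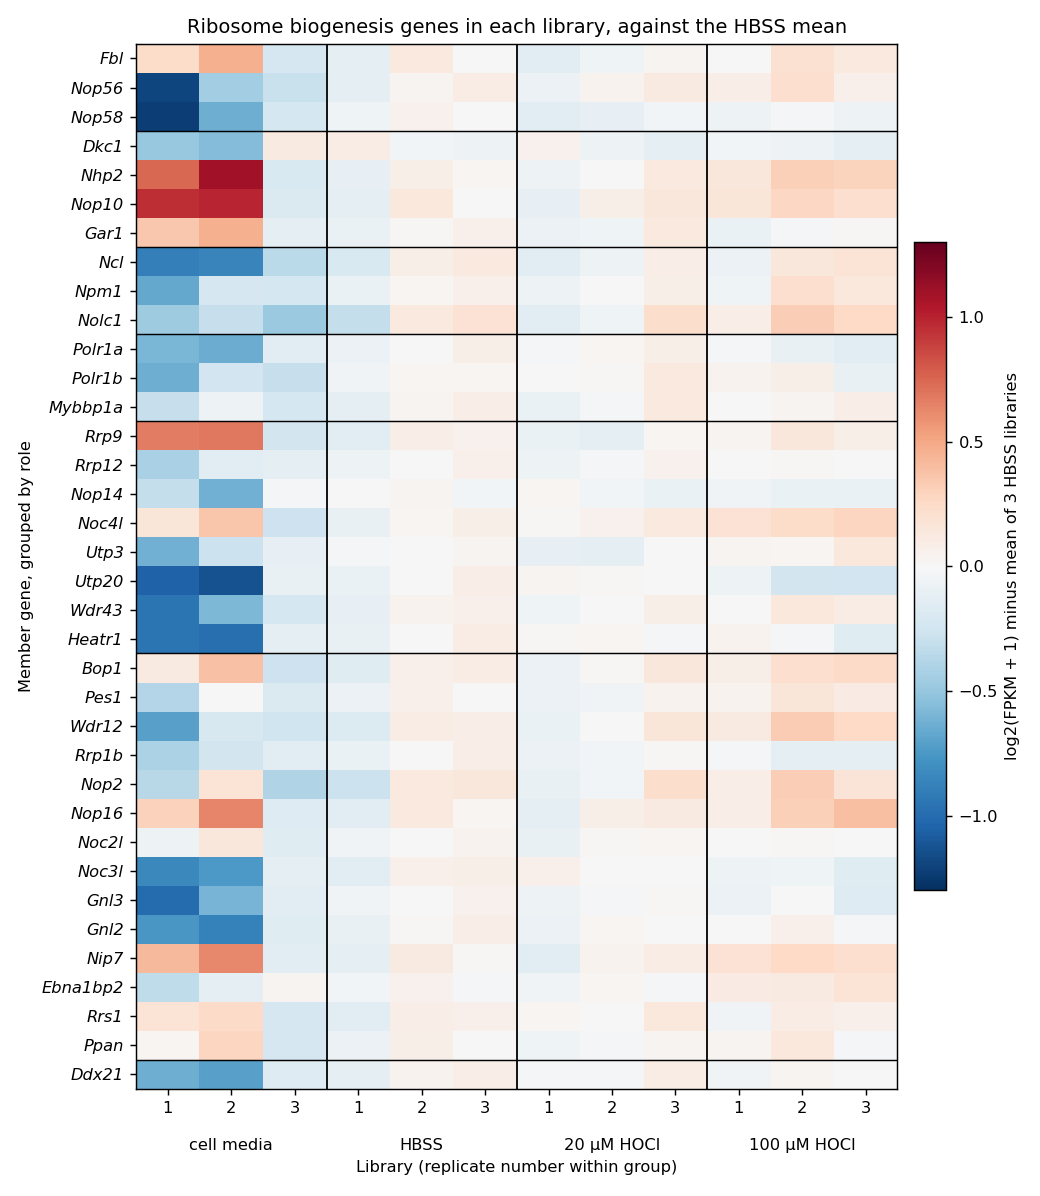
Each row is a member, grouped by role, and each column a library; color gives log2(FPKM + 1) minus the mean of the 3 HBSS libraries. Cell media replicates 1 and 2 hold the darkest cells, with Nop10 and Nhp2 above the HBSS mean and Utp20, Heatr1 and Nop58 below it, and cell media replicate 3 is pale and mostly below; the other 9 libraries differ little.

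The highest dose, 100 µM HOCl, was set against its vehicle HBSS to see what remained 24 h later. No member passed the main test, which has no block for replicate number. There 0 of 36 had an adjusted p under 0.05 (limma on log2(FPKM + 1), Benjamini-Hochberg adjustment over all kept genes), where the background was 0% of 12026 genes. With a block for replicate number on 10 libraries, some members and many other genes were called. Noc4l, Nhp2 and Nop16 were among them, and the counts are given in the closing section. At an unadjusted p under 0.05 stood 0 members and 933 kept genes (7.76%). On the log2(FPKM + 1) scale, which understates differences of low genes, 25 members were higher and 11 lower, with a median difference of 0.06 against -0.01 over all kept genes. That median rested on 1 library, since it was -0.00160 without HBSS replicate 1. The differences ran from -0.18 to 0.26. With a median standard error of 0.14, and 95% intervals reaching from -0.66 to 0.80, small changes were not detectable in this fit. With 10 libraries the median standard error was 0.063, and the intervals reached from -0.32 to 0.54.

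Among members with higher values, Noc4l (ENSMUSG00000033294), a small subunit factor that works with Nop14, had 14.6, 15.9 and 16.6 FPKM in HBSS, 15.8, 16.4 and 17.2 FPKM at 20 µM and 18.0, 18.8 and 19.3 FPKM at 100 µM. All 3 libraries at 100 µM were above the 6 at lower doses. Its difference from HBSS was 0.24 ± 0.13 (log2, SE; limma adjusted p = 0.665), and with 10 libraries the SE was 0.056 and the adjusted p 0.0642, the smallest of any member.

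Wdr12 had the lowest FPKM of its complex with Pes1 and Bop1. Its values were 7.13, 8.83 and 8.79 FPKM in HBSS, 7.69, 8.26 and 9.29 FPKM at 20 µM and 9.0, 10.6 and 10.0 FPKM at 100 µM. Every library at 100 µM was above every HBSS library, by little for replicate 1. The difference was 0.24 ± 0.14 (limma adjusted p = 0.665, and 0.131 with 10 libraries), and it was 0.15 without HBSS replicate 1. Nolc1 had 37.7, 51.3 and 53.5 FPKM in HBSS and 49.8, 58.7 and 56.3 FPKM at 100 µM. These groups overlapped, and HBSS replicate 1 was the low value. The difference was 0.22 ± 0.14 (limma adjusted p = 0.669), and 0.064 without HBSS replicate 1.

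Among members with lower values, Utp20 (ENSMUSG00000004356), a large scaffold protein of the small subunit processome, had 11.6, 12.3 and 13.1 FPKM in HBSS, 12.6, 12.4 and 12.2 FPKM at 20 µM and 11.7, 10.3 and 10.2 FPKM at 100 µM. The highest library at 100 µM was just above the lowest of HBSS and below all 3 at 20 µM. Its difference from HBSS was -0.18 ± 0.21 (limma adjusted p = 0.749), or 0.0966 with 10 libraries and an SE of 0.062. Rrp1b, a large subunit factor, had 9.84, 10.5 and 11.2 FPKM in HBSS and 10.3, 9.60 and 9.57 FPKM at 100 µM, and Polr1a had 21.4, 22.7 and 24.0 FPKM against 22.3, 21.1 and 20.5 FPKM. Both pairs of groups overlapped. Their differences were -0.09 ± 0.083 for Rrp1b (limma adjusted p = 0.724) and -0.09 ± 0.12 for Polr1a (0.778), and they were 0.01 and 0.07 once the trend with exon length was removed. Without HBSS replicate 3 they were -0.042 and -0.047.

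By role, values at 100 µM were above HBSS for 3 of 3 abundant nucleolar proteins (median difference 0.10) and 11 of 14 large subunit factors (0.08). They were above it for 5 of 8 small subunit factors (0.03), 2 of 4 H/ACA proteins (0.09) and 2 of 3 C/D proteins (0.11). They were also above it for 2 of 3 genes of RNA polymerase I and its regulator (0.01), and not for the helicase Ddx21. Of all kept genes 48.5% were above HBSS. Within the H/ACA snoRNP, Nhp2 had 99.4, 113 and 109 FPKM in HBSS against 118, 133 and 131 FPKM at 100 µM, without overlap. Dkc1 had 58.6, 53.1 and 52.2 FPKM in HBSS against 53.3, 51.9 and 50.2 FPKM at 100 µM. Fbl, of the C/D snoRNP, had 33.4, 39.8 and 36.4 FPKM in HBSS and 36.5, 41.8 and 39.8 FPKM at 100 µM, which overlapped. Ncl overlapped too, at 144, 174 and 180 FPKM in HBSS and 157, 183 and 188 FPKM at 100 µM, and so did Npm1, at 351, 379 and 389 FPKM against 359, 433 and 411 FPKM.

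The 2 groups did not overlap for 7 members. Nhp2, Nop10, Noc4l, Wdr12, Nip7 and Ebna1bp2 were higher at 100 µM and Nop14 lower. That is 19.4% of members, under the 34.1% of all kept genes (16.5% higher and 17.6% lower). With 10 libraries 0 members were called, against 29 kept genes (0.241%), and 8 members had an unadjusted p under 0.05 (22.2%), where 32.2% of all kept genes did. On these measures the share of members that stood apart was no larger than in the background.

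**Figure D2:**
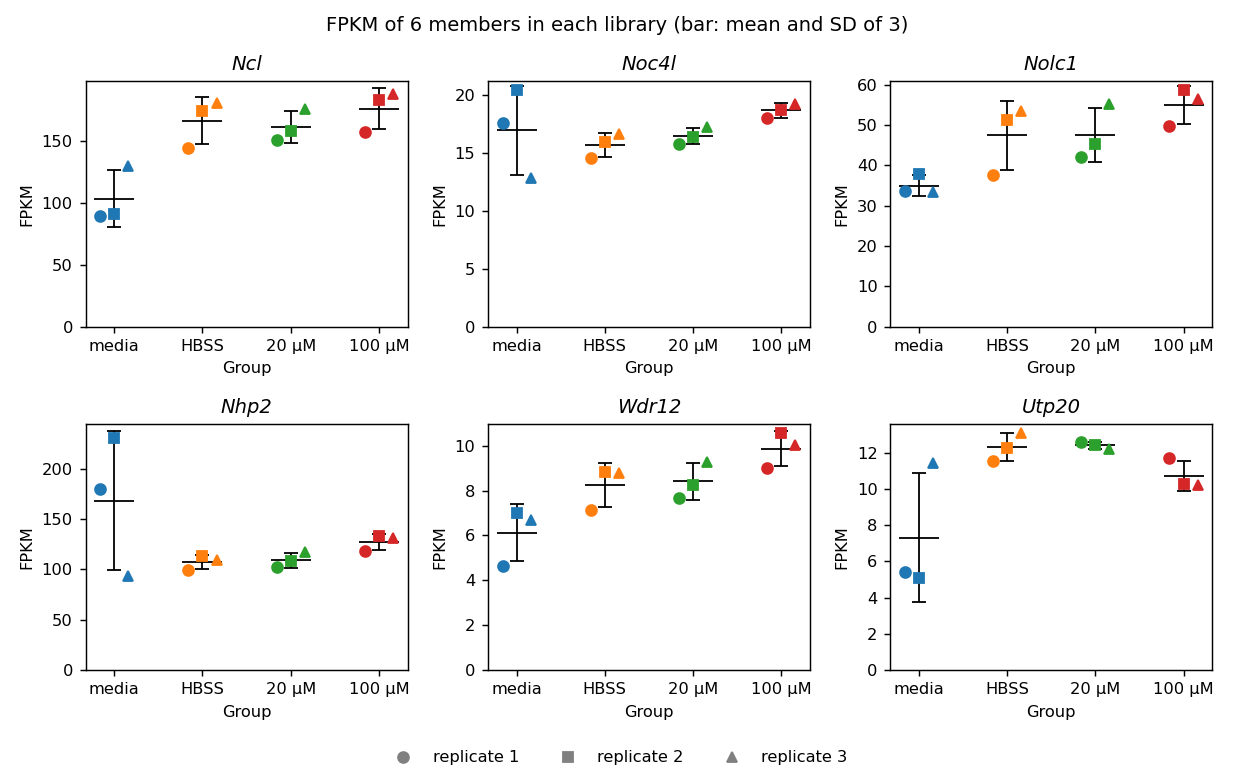
FPKM of Ncl, Noc4l, Nolc1, Nhp2, Wdr12 and Utp20 in each library, on axes from 0; symbols mark the replicate, and the bar with whiskers is the mean and SD of 3 libraries. Noc4l, Nhp2 and Wdr12 at 100 µM lie above all HBSS libraries, Nolc1 and Ncl overlap, and cell media is widely spread for Nhp2 and Utp20.

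The difference between 100 µM HOCl and HBSS went with exon length. Spearman's rho between the log2 difference and summed exon length was -0.473 across the 36 members and -0.413 across the 11895 kept genes with a length; genes are not independent replicates, and all points share the same 6 libraries. Of the 18 members with shorter exons (1109 to 3971 bases) 16 were higher at 100 µM, with a median of 0.12. Of the 18 with longer exons (3977 to 11955 bases) 9 were higher, with a median of 0.00132. With the length trend of all genes removed, 27 of 36 members were higher with a median of 0.07, against 0.02 over all kept genes. What part fragment length or RNA quality had in this trend was not tested.

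Wdr12 departed from the trend. Its exons sum to 11955 bases, the longest of all members, yet its difference was among the largest, and it was 0.39 with the length trend removed. Ncl, with 10188 bases, also lay above the trend, at 0.08 before and 0.22 after its removal. Summed exons can exceed the transcript expressed, which would misplace a gene on the trend and overcorrect it. Whether this held for Wdr12 and Ncl was not tested. Utp20, with 10199 bases, followed the trend, and its difference was -0.05 once the trend was removed. Nop10 and Nhp2 have the shortest exons (1109 and 1146 bases), and their differences of 0.22 and 0.25 became 0.11 and 0.14.

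**Figure D3:**
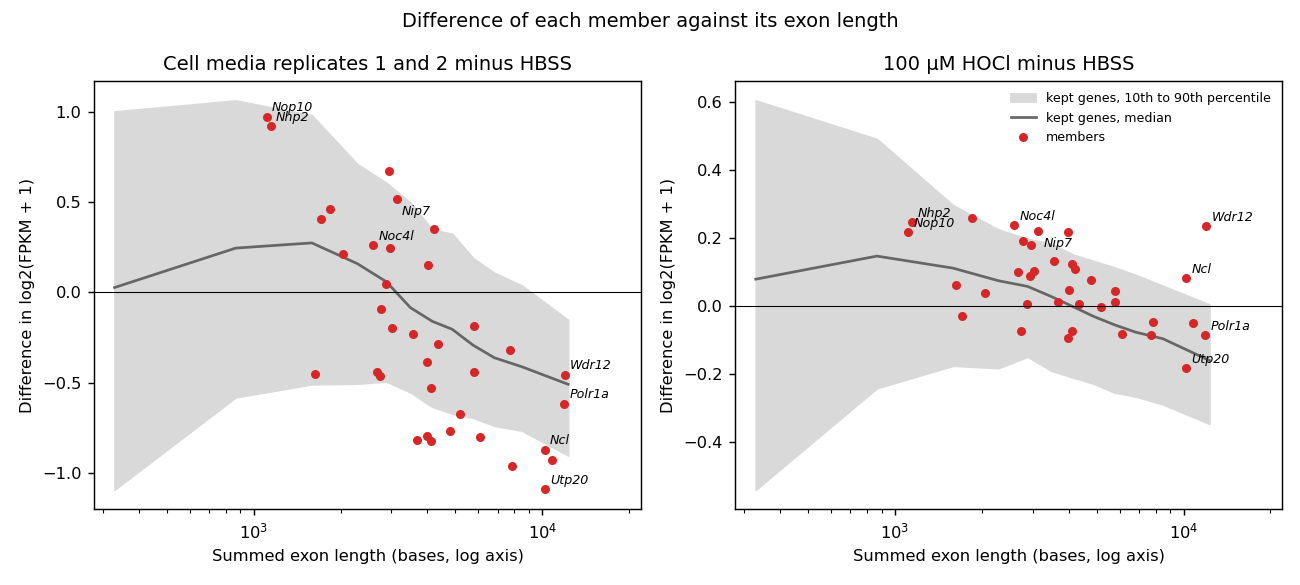
Difference in log2(FPKM + 1) against summed exon length (log axis), left for cell media replicates 1 and 2 minus HBSS and right for 100 µM HOCl minus HBSS; red points are the 36 members, the line is the median of kept genes and the grey band their 10th to 90th percentile. In both panels members with longer exons lie lower (Spearman's rho -0.686 left and -0.473 right), and Wdr12 and Ncl are among the points above the band on the right.

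The 2 doses were then compared with each other, in a contrast that shares the 100 µM libraries with the one before. Here 0 of 36 members were called in the main fit, which has no block (limma, background 0%). No member but 481 kept genes (4%) had an unadjusted p under 0.05. Some members and many other genes were called with the block for replicate number on 10 libraries, as given in the closing section. Values at 100 µM were above those at 20 µM for 24 members and below for 12, with a median of 0.06 against -0.02 over all kept genes. Groups did not overlap for 7 higher and 3 lower members, 27.8% in all, against 28.3% of kept genes (12.7% higher and 15.6% lower). With 10 libraries 0 members and 0 kept genes were called, and 8 members (22.2%) and 26.2% of kept genes had an unadjusted p under 0.05.

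Ebna1bp2, a large subunit factor, had 26.6, 28.0 and 27.3 FPKM at 20 µM and 29.8, 29.8 and 31.2 FPKM at 100 µM. The groups were apart, and the difference was 0.14 ± 0.088 (log2, SE; limma adjusted p = 0.825, and 0.124 with 10 libraries). Wdr12 differed by 0.21 ± 0.14 and Nolc1 by 0.21 ± 0.14, both with overlap between groups and a limma adjusted p of 0.825. In Nolc1 the 20 µM libraries were at 42.1, 45.2 and 55.1 FPKM, and the highest of them exceeded the lowest at 100 µM. Its difference was 0.13 without the first 20 µM library and 0.32 without the third, and that of Wdr12 was 0.37 with the length trend removed.

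The lower members were Polr1a, Utp20 and Noc3l. Polr1a had 22.5, 23.2 and 23.9 FPKM at 20 µM, all above the 3 libraries at 100 µM, and a difference of -0.12 ± 0.12, which was 0.04 with the length trend removed. For Utp20 the groups were apart and the difference was -0.20 ± 0.21, or -0.060 with the length trend removed. Noc3l, a large subunit factor, had 12.7, 12.1 and 12.2 FPKM at 20 µM and 11.5, 11.6 and 10.8 FPKM at 100 µM, a difference of -0.12 ± 0.16. The limma adjusted p was 0.825 for Polr1a and Utp20 and 0.830 for Noc3l.

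HOCl at 20 µM left the members close to the vehicle. No member was called (0 of 36, limma, background 0%), 0 had an unadjusted p under 0.05 (1.08% of kept genes, or 3.08% with 10 libraries, where members again had 0), and no member's groups were apart (7.69% of kept genes, 4.21% higher and 3.48% lower). There were 20 members higher and 16 lower, with a median of 0.00524 and differences from -0.09 to 0.07. The sign of the median depended on single libraries, at -0.05 without HBSS replicate 1 and -0.03 without the third 20 µM library. The 95% intervals of single members reached from -0.53 to 0.60 with 12 libraries and from -0.32 to 0.33 with 10, which bounds what could have gone unseen.

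The members with the smallest p at 20 µM lay on both sides of the vehicle. Noc4l was 0.07 ± 0.13 above HBSS, or 0.015 without HBSS replicate 1, and Polr1b 0.05 ± 0.10 above, with 7.16, 7.56 and 7.55 FPKM in HBSS and 7.42, 7.48 and 8.19 FPKM at 20 µM. Rrs1, a large subunit factor, had 35.8, 42.3 and 41.9 FPKM in HBSS and 40.7, 39.7 and 44.0 FPKM at 20 µM, a difference of 0.05 ± 0.12 that was -0.02 without HBSS replicate 1. Utp3, a small subunit factor, was -0.08 ± 0.11 with 36.8, 37.2 and 38.2 FPKM in HBSS and 34.6, 34.4 and 37.4 FPKM at 20 µM. Nop58, a scaffold of the C/D snoRNP, had 23.4, 25.4 and 24.4 FPKM in HBSS and 22.1, 22.6 and 23.7 FPKM at 20 µM, a difference of -0.09 ± 0.19. Rrp1b, at 9.87, 10.2 and 10.6 FPKM at 20 µM, differed by -0.03 ± 0.083, and by 0.00970 without HBSS replicate 3. All 6 had a limma adjusted p of 1.00, and no pair of groups was apart.

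Means ordered by dose, from HBSS over 20 to 100 µM, went up at each step in 13 of 36 members (36.1%, against 25.9% of kept genes) and down at each step in 4 (11.1%, against 26%). In 17 members (47.2%) the highest of the 4 group means was at 100 µM, against 23.4% of kept genes. These counts carry no test, and many of the steps were smaller than the SD of the 3 libraries.

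Cell media held the largest differences, in 2 forms that the libraries split between them. Over all 12 libraries 0 of 36 members were called for HBSS against cell media (limma), as were only 2 of 12026 kept genes (0.0166%), while 21 members had an unadjusted p under 0.05 (58.3%, 19 higher in HBSS and 2 lower), against 40% of kept genes. HBSS was above cell media in 25 members and below in 11, with a median difference of 0.29, where all kept genes had 0.10. Groups were apart for 16 members, all higher in HBSS (44.4%), where 12.7% of kept genes were apart and higher and 8.91% apart and lower (21.6% in all).

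Nucleolin had the smallest unadjusted p of the members, while Utp20 had the largest difference, at 0.76. Ncl (ENSMUSG00000026234) had 88.9, 91.0 and 129.6 FPKM in cell media replicates 1 to 3 and 144.4, 174.0 and 180.1 FPKM in HBSS. All 3 cell media libraries were below all 9 others, with replicate 3 nearest to them. The difference was 0.70 ± 0.15 (log2, SE; limma adjusted p = 0.0711) and 0.35 ± 0.14 with replicate 3 as the one cell media library (adjusted p = 0.644).

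Wdr43 and Ddx21 had the next smallest unadjusted p, although Utp20, Nop58, Heatr1, Nop56 and Gnl2, with the same adjusted p, had larger differences. Wdr43, an early small subunit factor, had 19.3, 25.0 and 32.3 FPKM in cell media and 35.1, 39.2 and 39.9 FPKM in HBSS, a difference of 0.59 ± 0.15, or 0.23 ± 0.089 with 10 libraries. Ddx21, a nucleolar RNA helicase, had 32.6, 30.9 and 45.4 FPKM in cell media and 46.8, 52.8 and 54.4 FPKM in HBSS. Its difference was 0.51 ± 0.13, or 0.17 ± 0.088 with 10 libraries. Both had a limma adjusted p of 0.0711, and of 0.644 with 10 libraries. Npm1 had 234, 321 and 319 FPKM in cell media and Polr1a 14.7, 14.2 and 20.3 FPKM, in both cases below all their HBSS libraries.

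A minority was lower in HBSS over the 12 libraries. Nop10, the smallest H/ACA protein, had 104, 107 and 46.6 FPKM in cell media and 48.4, 58.5 and 52.9 FPKM in HBSS. Nhp2 had 180, 230 and 93.5 FPKM in cell media. Nip7, a large subunit factor, had 20.8, 24.1 and 13.8 FPKM there and 13.9, 16.6 and 15.4 FPKM in HBSS. In each the first 2 cell media libraries were the highest of all 12 and the third was the lowest. The differences were -0.59 ± 0.25, -0.55 ± 0.25 and -0.30 ± 0.16 (limma adjusted p of 0.112, 0.125 and 0.173), and with 10 libraries all 3 had the opposite sign, at 0.19, 0.19 and 0.14. Without cell media replicate 2 they were -0.39, -0.28 and -0.14, and without replicate 3 -0.98, -0.92 and -0.52. Fbl, at 43.2, 50.4 and 31.1 FPKM in cell media, had the same order, while Dkc1, at 38.5, 36.6 and 59.1 FPKM, had the opposite one.

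In cell media replicates 1 and 2 the members' direction followed exon length. The mean of these 2 minus the HBSS mean had a Spearman's rho of -0.686 with exon length across the 36 members, and -0.422 across the 11895 kept genes with a length. Nop10 and Nhp2, with the shortest exons, were 1.98 and 1.91 times the HBSS level on the FPKM + 1 scale, while Utp20 and Heatr1, with 10199 and 7828 bases, were at 0.43 and 0.48 times. Both libraries were below all 9 HBSS and HOCl libraries in 20 members (55.6%, kept genes 38.3%) and above all 9 in 7 (19.4%, kept genes 20%). Cytosolic ribosomal proteins, whose mRNAs are short, took 12.7 and 12.5% of all FPKM in these 2 libraries and 7.21 to 8.08% in the other 10. Whether RNA quality, library making or the cells themselves lay behind these 2 libraries was not tested.

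Cell media replicate 3 showed another form, small and in 1 direction. It was below the HBSS mean in 34 of 36 members, with a median of -0.19, where the median over kept genes with a length was 0.01. HBSS replicate 1, itself part of that mean, also had only 2 members above it, with a median of -0.10. In 28 members (77.8%) cell media replicate 3 lay below all 9 HBSS and HOCl libraries. This held for 17.5% of kept genes and for 57 of 106 other pathway genes (53.8%). The difference did not go with exon length (Spearman's rho of -0.051 across members). Nolc1 was 0.70 and Nop2 0.75 times the HBSS level on the FPKM + 1 scale, and Dkc1 and Ebna1bp2, at 1.08 and 1.03 times, were the 2 members above it. Ribosomal proteins were level with HBSS in this library, at a median difference of 0.01.

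A single library cannot show a difference between groups. With 10 libraries HBSS was above this cell media library in 34 of 36 members at a median of 0.19, all kept genes were at -0.01, and 0 members and 0 kept genes were called (limma); 13 members (36.1%) and 6.84% of kept genes had an unadjusted p under 0.05. Without this library instead, 29 of 36 members were called, together with 7852 of 12026 kept genes (65.3%). The lone or paired cell media libraries are assumed in these fits to vary as the other groups do. All 3 cell media libraries lay below the 9 others in 12 members (33.3%), in 33 of 106 other pathway genes (31.1%) and in 7.34% of kept genes.

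**Figure D4:**
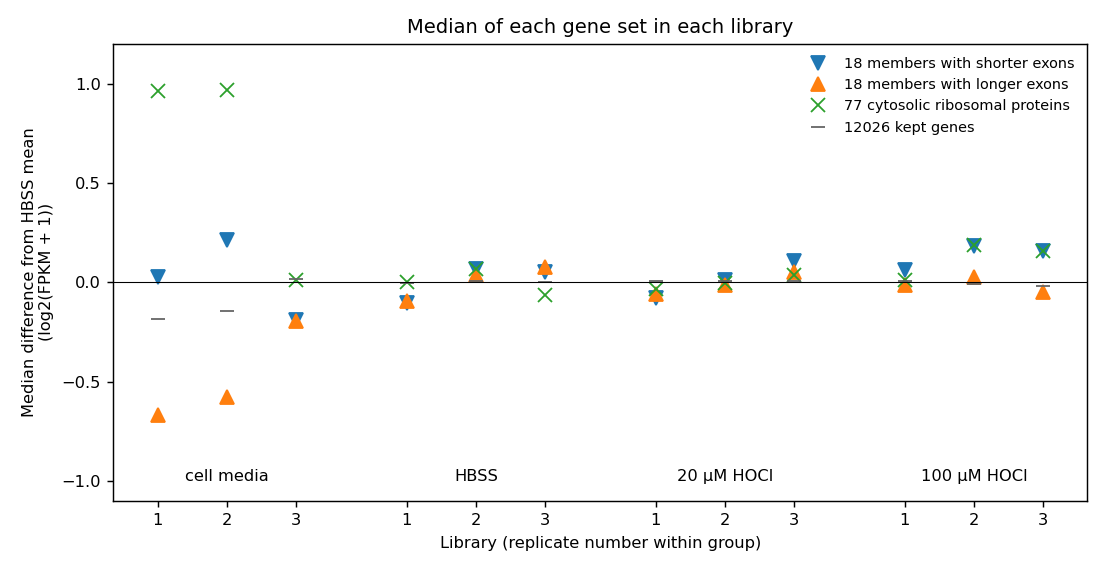
Median difference from the HBSS mean, in log2(FPKM + 1), in each library for the 18 members with shorter exons, the 18 with longer exons, 77 cytosolic ribosomal proteins and all kept genes. In cell media replicates 1 and 2 the longer members are at -0.67 and -0.58 and ribosomal proteins at 0.97 in both; in replicate 3 shorter and longer members are at -0.19 and -0.20 and ribosomal proteins at 0.01.

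Within groups many members were lowest in the same library. HBSS replicate 1 was the lowest of its group in 34 of 36 members (94.4%), against 41.4% of kept genes. The first 20 µM library was the lowest in 28 members (77.8%, kept genes 39.1%) and the first 100 µM library in 20 (55.6%, kept genes 34.3%). In 18 members (50%) the first library was the lowest in all 3 groups, as in 15.3% of kept genes and 37.7% of other pathway genes. The median member stood at -0.10 in HBSS replicate 1 and at 0.04 and 0.07 in the others, so this spread was larger than the median difference between 100 µM HOCl and HBSS. Nolc1 and Nop2 varied most among the 9 HBSS and HOCl libraries, with the highest library at 1.56 and 1.53 times the lowest, and Nop14 varied least, at 1.09 times.

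Myc, the transcription factor with the known E-box targets, was read as mRNA only, and its relation to the members was not tested. It had 8.30, 5.65 and 5.70 FPKM in HBSS, so it was highest in the library in which most members were lowest. At 20 µM it had 7.64, 6.71 and 6.72 FPKM, at 100 µM 6.08, 5.35 and 6.05 FPKM, and in cell media 7.02, 5.99 and 7.26 FPKM. Its difference between 100 µM and HBSS was -0.13 ± 0.13 (log2, SE; limma adjusted p = 0.730), between 100 and 20 µM -0.23 ± 0.13 (0.825), and between 20 µM and HBSS 0.10 ± 0.13 (1.00). HBSS and cell media differed by -0.05 ± 0.13 (0.755).

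Other genes of the pathway, from a list of 110 of which 106 were found and kept, were described in the same way. None was called by limma in any of the 4 comparisons with 12 libraries. At 100 µM, 79 of 106 were above HBSS with a median of 0.06, and 18 were apart and higher and 7 apart and lower, 23.6% in all, under the 34.1% of kept genes. Imp4, of the small subunit processome, had 13.2 ± 0.250 FPKM at 100 µM and 11.2 ± 0.872 FPKM in HBSS, a difference of 0.22 ± 0.11. Znhit3, which takes part in snoRNP assembly, had 8.92 ± 0.439 against 6.70 ± 0.451 FPKM, a difference of 0.37 ± 0.18. The helicase Ddx55 was lower, at 2.55 ± 0.302 against 3.15 ± 0.160 FPKM, a difference of -0.23 ± 0.11. The limma adjusted p was 0.643 for Imp4 and 0.647 for the other 2 (means ± SD, n = 3).

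Against 20 µM, Ddx55 differed by -0.25 ± 0.11, Imp4 by 0.17 ± 0.11 and the helicase Ddx24 by 0.13 ± 0.082 at 100 µM, each with a limma adjusted p of 0.825. Between 20 µM and HBSS the genes with the smallest p were Utp23 at 0.13 ± 0.068, Znhit6 at -0.13 ± 0.094 and Nsa2 at -0.09 ± 0.089, with an adjusted p of 1.00. HBSS was above cell media in 76 of 106. There Ftsj3, an rRNA methyltransferase, differed by 0.72 ± 0.16 and Bms1, a GTPase of the small subunit, by 0.64 ± 0.14, and by 0.29 and 0.24 with 10 libraries. Ddx24 differed by 0.35 ± 0.082, and by the same 0.35 with 10 libraries. All 3 had a limma adjusted p of 0.0711, or 0.644 with 10 libraries.

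Ribosomal proteins, the products that the members help to assemble, had values above HBSS in 72 of 77 at 100 µM HOCl, with a median of 0.12, and 0 were called with 12 libraries. With 10 libraries 1 of 77 was called, Rps12, at 118 ± 6.33 FPKM against 89.0 ± 6.47 FPKM in HBSS (SD, n = 3; limma adjusted p = 0.0484); it was named after its values were seen and may share reads with copies elsewhere in the genome. With the length trend removed 52 of 77 were above HBSS, with a median of 0.060. In HBSS against cell media 74 of 77 were lower, with a median of -0.65 that became -0.01 with 10 libraries.

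Some member genes carry box C/D snoRNAs in their introns, and 4 of these had rows of their own. Snord110, within Nop56, had 19, 11 and 12 fragments in HBSS, 11, 20 and 12 at 20 µM, 12, 8 and 5 at 100 µM and 0, 1 and 10 in cell media. Snord70, within Nop58, had 23, 22 and 20 fragments in HBSS, 17, 28 and 24 at 20 µM, 11, 8 and 6 at 100 µM and 3, 9 and 15 in cell media, so all 3 libraries at 100 µM were below all 6 at lower doses. Snord11, also within Nop58, had 1 to 11 fragments in every library, and Snord82, within Ncl, had at most 1. With so few fragments, in a library type made for mRNA, these rows may hold pieces of host transcripts as well as the snoRNA, and they were chosen after their values were seen.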

How the data were processed

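RNA from 12 J774A.1 samples in 4 groups of 3 was sequenced as mRNA libraries. The authors deposited FPKM values per gene and library; per the submitters' processing notes HISAT2, featureCounts and the mouse build GRCm39 were used, and their versions, the strand setting and the annotation release are not given in the sources used here. Which library ran on which of 2 instruments is not in the labels.

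Symbols and summed exon lengths were taken from GENCODE M21, of another build, for names and lengths only; 28302 of 28977 IDs had a symbol. Promoter windows are RefSeq's on GRCm38.p6. In values below 1 FPKM, 98.1 to 98.4% were whole multiples of 1 fragment within 0.01, which gave the depth and 1 alternative test.

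Genes with at least 1 FPKM in at least 3 libraries (12026) were fitted as log2(FPKM + 1) in limma 3.58.1 (R 4.3.3) with 4 group means, all 12 libraries, a mean-variance trend and two-sided tests, after a check of the code on simulated data. Calls needed an adjusted p under 0.05 (Benjamini-Hochberg, over all kept genes). With 3 libraries against 3 a permutation test cannot give a p below 0.1, so none was used. Members and lists were chosen with earlier results of these data known. Tests are given in each comparison for up to 3 members with the smallest p in each direction, and for up to 3 other pathway genes and Myc; Ncl, Npm1, Fbl, Dkc1 and Polr1a are given by library. Groups are called apart where all 3 libraries of one lie above all 3 of the other. Alternatives were the pseudocount (0.1), no filter, 2 scalings, removal of the exon length trend, fewer libraries, array weights, the replicate block and limma-voom on recovered reads.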

Additional observations from a re-analysis of the deposited data

How the results depend on the processing

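The results rest on 3 libraries a group and on FPKM without counts, and in cell media on libraries that disagree; no subsampling of depth was run. No member was called with all 12 libraries and equal weights, whatever the pseudocount (0.1), filter, scaling (median of ratios, quantile), exon length correction or limma-voom on recovered reads. Calls of members came only with array weights, with the replicate block or without cell media replicate 3. Array weights gave 3 (100 µM against HBSS), 16 (100 against 20 µM) and 28 (HBSS against cell media) of 36 members called. In all, 3067, 4677 and 6889 of 12026 kept genes were called there. Cell media replicate 3 had an array weight of 0.044.

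Genes called in all were, without a filter, 6 (20 µM against HBSS), 1 (100 µM against HBSS), 11 (100 against 20 µM) and 5 (HBSS against cell media). With 10 libraries they were 29 for 100 µM against HBSS and 0 for cell media, and with only the 2 groups compared 2, 1 and 0 (100 µM against HBSS, 100 against 20 µM, HBSS against cell media). Quantile normalization and limma-voom each gave 4 for cell media. Removing the length trend gave 15 for cell media, and 1 (100 µM against HBSS) and 0 (cell media) with 10 libraries, an alternative chosen after seeing the data. Leaving out 1 library at a time gave 0 to 1 genes for 100 µM against HBSS and 0 to 7852 genes with 0 to 29 members for cell media, the highest without cell media replicate 3. The cause of these changes was not tested.

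The median member difference between HBSS and cell media was 0.18 with median-of-ratios scaling, 0.19 with 10 libraries, 0.39 with array weights and 0.18 with the length trend removed. The median of 100 µM against HBSS was -0.00161 with quantile normalization, and that of 20 µM against HBSS had either sign, from -0.05 to 0.03 when 1 library was left out. Opposite signs arose for Rrs1 at 20 µM (-0.036 with array weights, and -0.024 to 0.093 when 1 library was left out, lowest without HBSS replicate 1), for Rrp1b at 20 µM (-0.075 to 0.00970, highest without HBSS replicate 3), and with the length trend removed, in 12 or 10 libraries and with or without the block, for Rrp1b (0.013) and Polr1a (0.070) at 100 µM against HBSS and for Polr1a (0.041) at 100 against 20 µM. Nop10, Nhp2 and Nip7 in HBSS against cell media had 0.19, 0.19 and 0.14 with 10 libraries, and 0.19, 0.20 and 0.13 with the length trend removed as well. Over all alternatives the limma adjusted p of Noc4l and Wdr12 at 100 µM against HBSS ran from 0.0146 and 0.0170 to 0.968, that of Utp20 from 0.0218 to 0.968, that of Ebna1bp2 at 100 against 20 µM from 0.0341 to 1.00, and those of Ncl, Wdr43 and Ddx21 in HBSS against cell media from 8.56e-05, 0.000117 and 2.90e-05 to 0.644.

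Samples with the same replicate number did not deviate together in every pair. Correlations ran from -0.062 to 0.351 for 20 µM and from -0.025 to 0.264 for 100 µM against HBSS. They ran from 0.055 to 0.414 for 100 against 20 µM and from -0.026 to 0.346 for HBSS against cell media. The labels do not say whether the numbers pair the samples, and these mixed correlations cannot decide it. The main fit, which has no block, may therefore ignore a pairing. With the replicate block 2 members (Ncl and Wdr43) and 193 genes were called for HBSS against cell media. With the block on 10 libraries 8 members and 2979 genes were called for 100 µM against HBSS, 8 members and 2088 genes for 100 against 20 µM and 0 genes for cell media, where Nop10, Nhp2 and Nip7 had 0.22, 0.25 and 0.17. With the block and the length trend removed on 10 libraries, also chosen after seeing the data, the counts were 7 members and 2012 genes, 4 members and 753 genes, and 33 genes for cell media, where these 3 genes had 0.21, 0.24 and 0.17.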
